A study of Mus musculus with 15 samples.

Results

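Mouse induced pluripotent stem (iPS) cell lines and an embryonic stem (ES) cell line are both self-renewing pluripotent cells, and the 10 genes described here are ones in which 3 iPS lines sat apart from 1 ES line in the same direction. The genes were Irs1, Prex2, Plcb1, Ildr2, Bnipl and Thbd, brighter in the iPS lines, and Tafa1, Hkdc1, Vwa3b and Vax2, dimmer in them. They were picked on these same arrays because IP14D-1, IP14D-101 and IP20D-3 all differed one way from the ES line CL11, so the differences from CL11 are descriptions and were not tested. The array annotation assigned 18 of 45037 probe sets to one of these genes alone, and the 10 genes stand among 18193 named by at least 1 such probe set. A probe set is a group of short probes read together as one signal.

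Expression was measured on 15 Affymetrix arrays in 5 groups of 3 arrays. The groups were mouse embryonic fibroblasts (MEF), the ES line CL11 and the iPS lines IP14D-1 and IP20D-3, all of the B6D2F1 background, and the iPS line IP14D-101 of the C57x129S2 background. No MEF or ES array had the background of IP14D-101, so in its comparisons line and background cannot be told apart. The design text says that the iPS lines came from the original MEF and that each group had 3 biological replicates. Each ES or iPS group is a single line. The p values measure only the spread between arrays within groups, pooled over all 5 groups, and not the spread between lines. The ES and iPS cells shared growth on feeder MEF treated with mitomycin C, with LIF and either serum or a serum replacement. Which of the media a line received, and whether feeders were removed before RNA extraction, is not given in the labels.

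Signals are the deposited MAS5 intensities, scaled so that all arrays had the same trimmed mean, and levels are log2(signal + 16). Background was set at a scaled signal of 2122 (log2 11.06), the 95th percentile of 44 probe sets for olfactory receptors, genes used mainly in the nose. Across all probe sets, 54.5% of values lay above it. Arrays of a group correlated at 0.916 to 0.942 and arrays of different groups at 0.775 to 0.927. The labelled cell types had their defining markers. All 12 pluripotent cell markers, Pou5f1, Sox2 and Nanog among them, had group means above background in each line and 1 of 12 did in MEF, whereas all 12 fibroblast markers did in MEF. In RNA from whole cultures, fewer cells of a type and less RNA per cell cannot be told apart.

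Several of the genes act in signalling from the cell surface. Irs1 encodes the adaptor that binds the activated insulin and IGF1 receptors and recruits phosphoinositide 3-kinase (PI3K), whose lipid product activates Akt. Prex2 encodes an exchange factor for the small GTPase Rac that responds to the same lipid, and Plcb1 encodes a phospholipase C that cleaves phosphatidylinositol bisphosphate downstream of Gq-coupled receptors. The others have unrelated roles, from a homeobox factor of the ventral eye (Vax2) to the endothelial clotting regulator thrombomodulin (Thbd).

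RefSeq promoter entries on GRCm38.p6 were matched for 6 of the 10 genes, namely Irs1, Plcb1, Ildr2, Tafa1, Hkdc1 and Vwa3b. To show how differently 2 genes of the brighter set and 1 of the dimmer set begin, the 250 bases before the start of Irs1 (chr1:82291440-82291689, minus strand), Plcb1 (chr2:134785914-134786163, plus strand) and Tafa1 (chr6:96112904-96113153, plus strand) are printed 5′ to 3′, with each CpG in capitals.
Irs1: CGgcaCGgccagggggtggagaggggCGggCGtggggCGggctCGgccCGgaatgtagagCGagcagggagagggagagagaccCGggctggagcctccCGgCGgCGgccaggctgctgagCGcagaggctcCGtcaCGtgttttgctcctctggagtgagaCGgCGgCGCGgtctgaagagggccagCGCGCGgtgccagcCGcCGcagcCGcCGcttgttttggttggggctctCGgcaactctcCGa
Plcb1: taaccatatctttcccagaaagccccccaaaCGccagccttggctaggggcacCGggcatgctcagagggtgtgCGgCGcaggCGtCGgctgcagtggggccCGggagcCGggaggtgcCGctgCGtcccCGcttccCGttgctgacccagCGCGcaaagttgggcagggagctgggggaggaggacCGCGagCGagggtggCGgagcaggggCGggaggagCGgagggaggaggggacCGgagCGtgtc
Tafa1: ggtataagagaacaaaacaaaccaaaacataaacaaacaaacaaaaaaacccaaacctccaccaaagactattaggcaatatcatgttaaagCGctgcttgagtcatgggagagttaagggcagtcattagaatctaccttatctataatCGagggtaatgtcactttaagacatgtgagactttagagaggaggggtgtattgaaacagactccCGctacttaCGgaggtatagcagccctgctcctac
The Irs1 stretch held 28 CpG at a GC content of 72.4%, and the Plcb1 stretch held 22 CpG at 71.2%. Tafa1 held 4 CpG at 40.8%. The median over 32851 promoters read the same way was 6 CpG and 52.4%. Of the genes not printed, Ildr2 held 23 CpG, Vwa3b 11 and Hkdc1 6. Their stretches lie before a start inside the RefSeq span of the gene, not before its outermost end as the printed ones do. The 3 matched genes that were brighter in the iPS lines held 22 to 28 CpG, and the 3 that were dimmer held 4 to 11. Of the dimmer ones, Vwa3b was above the median of 6. This is a description of 6 stretches, which do not all sit at the same kind of start. The letters GGGCGG (GC box, on either strand) were found in Irs1, Plcb1, Ildr2 and Vwa3b and in 32.7% of all promoters. The palindrome CACGTG (E-box) was found in Irs1 and Ildr2 and in 6.02% of all promoters. CCAAT, on either strand, was found in Vwa3b and in 33.8% of all promoters, and TATAAA, on either strand, in none of the 6 and in 12.4% of all.

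Irs1 was bright in MEF, intermediate in the iPS lines and below background in CL11. Its only probe set (1423104_at) gave scaled signals of 33937, 37199 and 32417 in MEF. The values were 8947, 9712 and 9090.3 in IP14D-1, 4506, 4574 and 3473 in IP20D-3, and 2579, 3544 and 3449 in IP14D-101. CL11 gave 116, 1006 and 194. Every iPS array lay above background and above every CL11 array, and every MEF array lay above every iPS array. Relative to CL11 the iPS lines were at least 4.33-fold (IP14D-1), 1.95-fold (IP20D-3) and 1.49-fold (IP14D-101) higher, where "at least" sets the dimmer group at background.

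**Figure D1:**
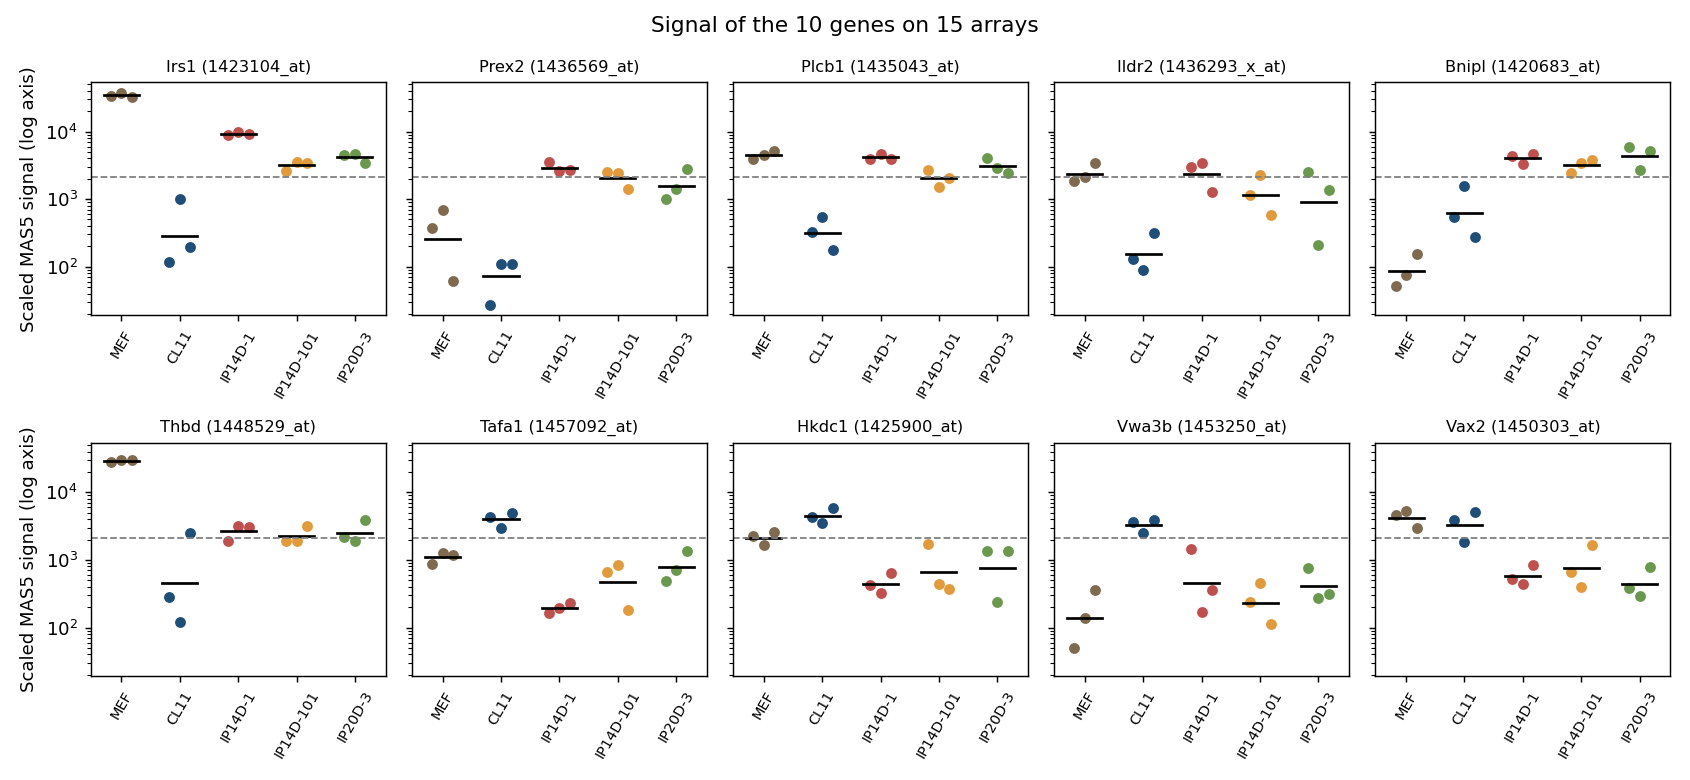
Scaled MAS5 signal (log axis) of the brightest probe set of each of the 10 genes on every array, by group. Points are arrays, short bars are the mean on the log2(signal + 16) scale, and the dashed line is the background of 2122. For Irs1 the CL11 arrays lie at 116 to 1006 and the iPS arrays at 2579 to 9712. For Thbd one CL11 array, at 2523, lies among the iPS arrays.

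The comparisons with MEF use arrays that the choice of genes did not, although the arrays of the lines were used in it, and all 4 share the MEF arrays. The choice on the line arrays can also pull these differences, in CL11 above all. The p values do not allow for it. A gene is called where its adjusted p, over all 45037 probe sets of a comparison, is under 0.05. Irs1 was lower than in MEF in each line. In CL11 the difference was −6.82 ± 0.48 log2 (standard error, n = 3 a group; limma adjusted p = 5.28e-10), at least 16.1-fold. It was −3.44 for IP14D-101 (adjusted p = 6.07e-06), −3.05 for IP20D-3 (2.62e-05) and −1.90 for IP14D-1 (0.00302). As folds, the iPS lines lay 10.9, 8.27 and 3.72 times under MEF in that order. Between iPS lines, Irs1 was 2.92-fold lower in IP14D-101 than in IP14D-1 (−1.54 ± 0.48 log2, limma adjusted p = 0.0245). This call held under 8 of 11 other settings (limma adjusted p down to 0.000138). It was lost under median scaling (limma adjusted p = 0.0822), quantile normalization and a fit without a trend (0.0743 each). Leaving out IP14D-101 replicate 1 (0.077) or any array of IP14D-1 (0.0594 to 0.0736) also ended it. The standard error pools all groups, and the SD was 1.55 log2 in CL11, 0.25 in IP14D-101 and 0.06 in IP14D-1. IP20D-3 lay between, 1.15 log2 under IP14D-1 (adjusted p = 0.204) and 0.39 above IP14D-101 (0.658), neither beyond the threshold, so the order of these neighbours is not settled.

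The Irs1 level was set beside the fibroblast markers because the lines grew on fibroblasts. As a share of the MEF mean, Irs1 stood at 26.8% in IP14D-1, 12.1% in IP20D-3 and 9.24% in IP14D-101, and was below background in CL11. The 12 fibroblast and feeder markers, summed, stood at 0.732%, 0.393% and 0.333% of MEF in the same order and at 0.325% in CL11. The marker sum was 15099 to 22386 in CL11, 18650.1 to 19665 in IP14D-101, 18886 to 24961 in IP20D-3 and 40357 to 44455 in IP14D-1, against 5454190.0 to 6028950.0 in MEF. Of the 12 markers, 7 had means above background in IP14D-1 and 4 in each other line. In the 3 iPS lines the percentage of Irs1 exceeded that of the summed fibroblast markers. The part of feeder cells in the Irs1 signal was not tested.

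**Figure D2:**
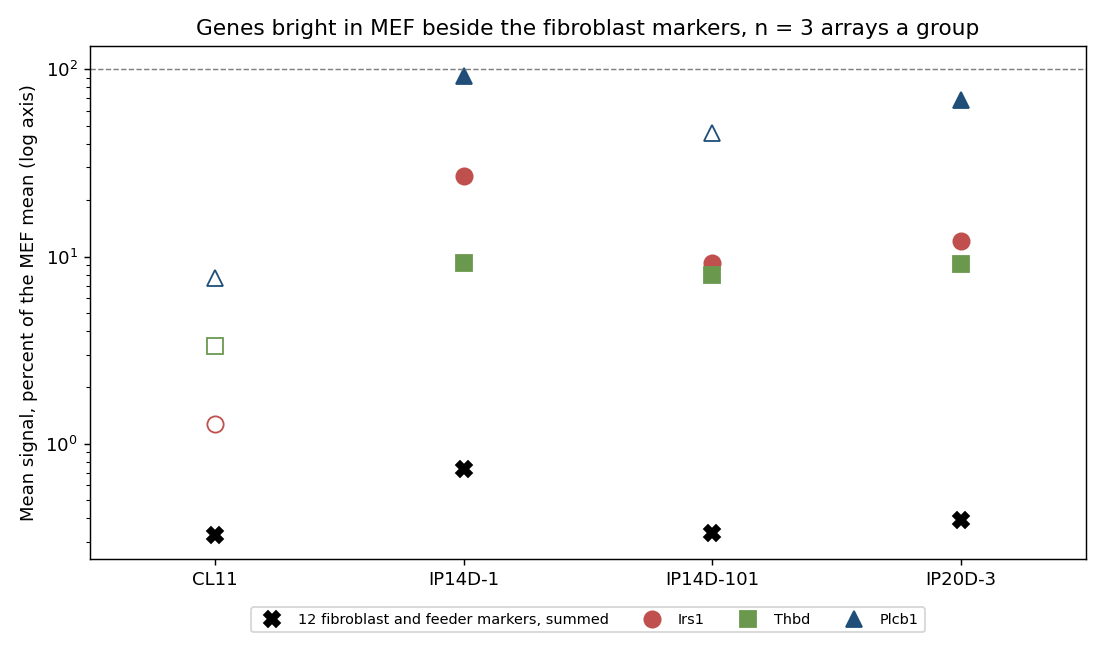
Mean scaled signal of Irs1, Thbd, Plcb1 and the sum of 12 fibroblast and feeder markers in each line, as a percent of the MEF mean (log axis, n = 3 arrays a group, no error drawn; the dashed line is 100%; open symbols are group means below background, which have no rank). The marker sum lies between 0.325% and 0.732%, under every filled symbol of its line, and the highest marker sum and the highest Irs1, 26.8%, are both in IP14D-1.

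Plcb1 overlapped the MEF range in IP14D-1 and IP20D-3 and was dimmest in CL11. Its brightest probe set (1435043_at) read 3978, 4523 and 5201 in MEF and 3931, 4722 and 3889 in IP14D-1. IP20D-3 gave 4029, 2861 and 2473, IP14D-101 gave 2698, 1498 and 2039, and CL11 gave 327, 554 and 176. All 9 iPS arrays lay above all CL11 arrays, and the IP14D-101 arrays lay below all MEF arrays. The iPS lines exceeded CL11 by 3.64 (IP14D-1), 3.20 (IP20D-3) and 2.60 log2 (IP14D-101), at least 1.95-fold and 1.44-fold for IP14D-1 and IP20D-3, with no fold for IP14D-101, whose mean was below background. CL11 was at least 2.13-fold under MEF (−3.77 ± 0.42 log2, limma adjusted p = 3.66e-07). IP14D-101 was at least 1.97-fold lower than MEF (−1.16 log2, adjusted p = 0.0303), but not under median scaling (0.131) or quantile normalization (0.111), nor without any 1 of 4 arrays (0.055 to 0.111; MEF replicates 2 and 3, IP14D-101 replicates 2 and 3). IP14D-1 and IP20D-3 gave −0.12 and −0.57 against MEF (adjusted p = 0.859 and 0.316). As a share of MEF, Plcb1 stood at 91.5% in IP14D-1 and 68.3% in IP20D-3, and was below background in IP14D-101 and CL11.

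Prex2 was seen mainly in the iPS lines. The brighter of its 2 probe sets (1436569_at) read 3583, 2611 and 2687 in IP14D-1, 2537, 2451 and 1400.5 in IP14D-101, and 995, 1389 and 2794 in IP20D-3. MEF gave 374, 679.8 and 62.6, and CL11 gave 27.6, 109 and 110.2. Every iPS array lay above every CL11 and MEF array, but only the IP14D-1 mean was above background, so a measured fold could be given for that line alone, at least 1.38-fold over either CL11 or MEF. Prex2 was higher than in MEF by 3.41 ± 0.78 log2 in IP14D-1 (limma adjusted p = 0.0013). The IP14D-101 and IP20D-3 differences were 2.90 (0.0045) and 2.52 (0.0125). The IP20D-3 call was lost without MEF replicate 3 (adjusted p = 0.0885) or IP20D-3 replicate 3 (0.0661). CL11 did not pass against MEF (−1.65, adjusted p = 0.0997), with both below background, though it did without MEF replicate 3 (0.00775) and with unscaled signals (0.04). No pair of iPS lines passed.

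Ildr2 belongs to a family of immunoglobulin-like proteins placed at the corners where epithelial cells meet. Of its 3 probe sets the brightest (1436293_x_at) read 1861, 2146 and 3383 in MEF, 2996, 3399 and 1255 in IP14D-1, 1139, 2274 and 587 in IP14D-101, and 2523, 212 and 1345 in IP20D-3. CL11 gave 128, 89.9 and 319. One IP20D-3 array, at 212, lay among the CL11 arrays, and the other iPS arrays lay above them. CL11 was lower than MEF (−3.80 ± 0.81 log2, at least 1.12-fold, limma adjusted p = 0.00068), and IP14D-1, IP14D-101 and IP20D-3 gave −0.03, −1.04 and −1.38 against MEF with no call (adjusted p = 0.986, 0.336 and 0.195). The spread within IP20D-3 was wide, with an SD of 1.81 log2 (n = 3).

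Thbd, thrombomodulin, binds thrombin at the vessel wall and turns it toward activating protein C. It was very bright in MEF, at 27685, 29631 and 30426. The iPS lines sat near background, with 1876, 3148 and 3096 in IP14D-1, 1882, 1911 and 3160.5 in IP14D-101, and 2198, 1897 and 3910.1 in IP20D-3. CL11 gave 278, 122 and 2523. CL11 replicate 3 thus lay inside the iPS range, so these groups overlapped. The excess over CL11 of 2.27 to 2.50 log2 became 3.49 to 3.72 without that array. Without CL11 replicate 2 it became 1.39 to 1.62. All lines were lower than MEF, CL11 by at least 12.9-fold (−5.96 ± 0.69 log2, limma adjusted p = 5.49e-07). IP14D-101 was 12.9-fold lower (−3.69, 0.000169), IP20D-3 11.5-fold (−3.52, 0.000278) and IP14D-1 11.0-fold (−3.46, 0.000346). Thbd stood at 9.25%, 7.92% and 9.12% of MEF in IP14D-1, IP14D-101 and IP20D-3, with a CL11 mean below background.

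Bnipl encodes a relative of the BNIP2 protein with a lipid-binding domain of the Sec14 type. Unlike Irs1, Plcb1 and Thbd it was dim in MEF, at 52.3, 75.9 and 156, and in CL11, at 550.5, 1573 and 272. It read 4306, 3271 and 4607 in IP14D-1, 2432, 3417 and 3785 in IP14D-101, and 5885, 2709 and 5095 in IP20D-3. All 9 iPS arrays were above background and above every CL11 and MEF array. Against MEF it was higher by at least 1.89-fold in IP14D-1 (5.30 ± 0.61 log2, limma adjusted p = 5.71e-07). The bounds were 1.48-fold for IP14D-101 (4.95, 1.27e-06) and 2.03-fold for IP20D-3 (5.41, 4.02e-07). The bounds against CL11 were the same, since both dim groups were set at background. CL11 was also called above MEF (2.64, adjusted p = 0.00139), with both means below background and no call at a pseudocount of 1000 (0.0805).

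Tafa1 encodes a small secreted chemokine-like protein known from the brain, and it was above background only in CL11, at 4340.3, 2972 and 4864. MEF gave 873, 1268 and 1163. The iPS lines gave 165, 197 and 229.9 (IP14D-1), 653, 830.2 and 179 (IP14D-101), and 486, 703 and 1351 (IP20D-3). No iPS array reached a CL11 array, and CL11 was at least 1.87-fold above each iPS line and above MEF. CL11 passed against MEF (1.85 ± 0.65 log2, limma adjusted p = 0.0277), as did IP14D-1 in the other direction (−2.38, adjusted p = 0.00574, both below background). The CL11 call was lost with unscaled signals (adjusted p = 0.0965) and without CL11 replicate 1 or 3 or MEF replicate 1 or 3 (0.0555 to 0.0878). IP14D-101 and IP20D-3 gave −1.20 and −0.48 against MEF, with no call.

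Hkdc1 encodes a hexokinase-like enzyme related to those that trap glucose in cells. The brighter of its 2 probe sets (1425900_at) read 4289.6, 3517 and 5837 in CL11 and 2222, 1646 and 2604 in MEF. It read 429, 321 and 646 in IP14D-1, 1738, 439 and 365 in IP14D-101, and 1339.7, 239.7 and 1330.5 in IP20D-3. The CL11 arrays lay above all others and CL11 was at least 2.09-fold above each iPS line. Against MEF, CL11 did not pass (1.06 ± 0.70 log2, limma adjusted p = 0.251), although their arrays did not overlap and the call was made with a pseudocount of 1000 (0.0423) and in a fit on these groups alone (0.0184). IP14D-1 was lower than MEF (−2.21, adjusted p = 0.0151, both means below background), except without MEF replicate 3 (0.0529) or IP14D-1 replicate 2 (0.0554). IP14D-101 and IP20D-3 gave −1.67 and −1.46 against MEF (adjusted p = 0.0602 and 0.105); the former passed without IP14D-101 replicate 1 (0.0117) and under 5 of 11 other settings.

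Vwa3b encodes a protein with a von Willebrand factor type A domain, and its probe set (1453250_at) was bright in CL11 alone. The signals were 3670.0, 2529 and 3953 in CL11 and 49.0, 137 and 355 in MEF. IP14D-1 gave 1426, 168 and 364, IP14D-101 gave 239, 463 and 111, and IP20D-3 gave 760.4, 276 and 312. All CL11 arrays were above background and all others below. CL11 was higher than MEF (4.43 ± 0.87 log2, at least 1.56-fold, limma adjusted p = 0.000306), and the iPS lines gave 1.59, 0.69 and 1.44 against MEF with no call (adjusted p = 0.166, 0.571 and 0.207, for IP14D-1, IP14D-101 and IP20D-3). CL11 was at least 1.56-fold above each iPS line.

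Vax2, a homeobox gene of the ventral retina, was present in both CL11 and MEF. The signals were 4609.9, 5323 and 2919 in MEF, and 3843, 1862 and 5034 in CL11. IP14D-1 gave 522, 442 and 843, IP14D-101 gave 662, 392 and 1639, and IP20D-3 gave 382, 292 and 788. All iPS arrays were below background and below every CL11 and MEF array. Each iPS line was at least 1.95-fold lower than MEF. The differences were −2.81 ± 0.62 log2 (IP14D-1, limma adjusted p = 0.000898), −2.44 (IP14D-101, 0.00283) and −3.17 (IP20D-3, 0.000257). CL11 and MEF, whose arrays overlapped, gave −0.33 (adjusted p = 0.724). CL11 was at least 1.55-fold above each iPS line.

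**Figure D3:**
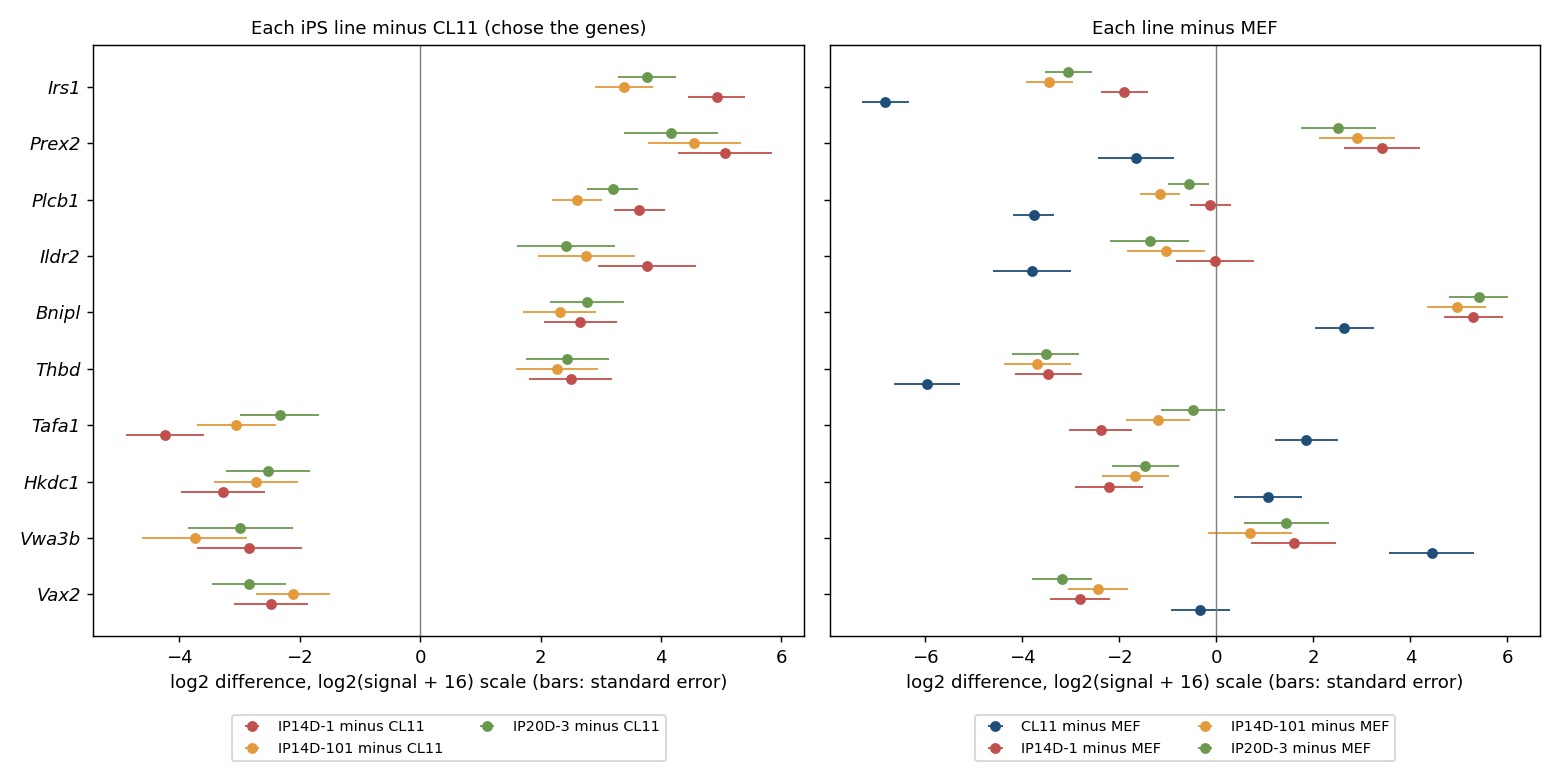
Log2 difference, with standard error, of each of the 10 genes in each iPS line minus CL11 (left, the contrast that chose the genes) and in each line minus MEF (right), on the log2(signal + 16) scale. On the right, Irs1 and Thbd lie below 0 in all 4 lines and Bnipl above 0, while Vwa3b is farthest from 0 in CL11, at 4.43.

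Of the 10 genes, with each one read on its brightest probe set, CL11 had 3 higher and 4 lower than MEF, where 22.1% and 21.3% of all probe sets were called in those directions. IP14D-1 had 2 higher and 5 lower (23.3% and 18.7% of all probe sets), IP14D-101 2 higher and 4 lower (21.8% and 23.9%), and IP20D-3 2 higher and 3 lower (23.5% and 20.3%). The 2 higher genes were Prex2 and Bnipl in each iPS line. Over the 10 genes the medians, in that order of lines, were −0.99, −1.01, −1.18 and −0.97 log2, beside −0.06, 0.11, −0.13 and 0.03 over all probe sets. Against MEF, CL11 had 4 of the 6 genes that were brighter in iPS lines below it (Irs1, Plcb1, Ildr2 and Thbd). These 6 were chosen for low values on the same CL11 arrays, so that count is a description.

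For the contrast that chose the genes, the call rule is given as background only. Its counts of the 10 genes follow from that choice and test nothing. In IP14D-1 6 genes were higher and 4 lower than CL11, where 9.42% and 7.78% of all probe sets were. In IP14D-101 the numbers were 5 and 4 (3.31% and 3.86%), with Thbd short of the threshold, and in IP20D-3 5 and 4 (7.61% and 6.87%), with Ildr2 short of it. These counts of 9 genes each were 5 without CL11 replicate 1, and that of IP14D-101 was also 5 without its replicate 2 and in a fit on the 2 groups alone. Over all probe sets, 1.03% were higher than CL11 in all 3 iPS lines and 0.93% lower, 463 and 419 probe sets; Irs1, Prex2, Plcb1 and Bnipl were among the former and Tafa1, Hkdc1, Vwa3b and Vax2 among the latter. The 3 comparisons share the CL11 arrays. On 1 probe set per gene, 4412 (IP14D-1), 2092 (IP14D-101) and 3984 (IP20D-3) of 18193 were called against CL11, in either direction. Between iPS lines, IP14D-101 minus IP14D-1 had no gene of the 10 higher and 1 lower, Irs1 (9.51% and 13.9% of all probe sets). IP20D-3 minus IP14D-1 had none (2.74% higher and 2.74% lower), and IP20D-3 minus IP14D-101 had none (10.5% and 7.67%); at these group sizes that does not show that the lines are alike.

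Only the brightest probe set of each gene had a group mean above background. The 8 others, 4 of Plcb1, 2 of Ildr2 and 1 each of Prex2 and Hkdc1, had all 5 group means below background. No fold could be given, but some differences were called. Prex2 1432047_at was above MEF in IP14D-101 (2.65 log2, limma adjusted p = 0.0468) and IP20D-3 (3.05, 0.0233). It gave −0.21 in IP14D-1 minus CL11 (0.93). Plcb1 1425600_a_at was above CL11 in IP20D-3 (1.85, 0.0341) and lower in CL11 than in MEF (−1.42, 0.0498). Ildr2 1436221_at was above MEF in IP14D-1 (2.08, 0.0394), where the brightest Ildr2 probe set gave −0.03 (0.986). No other difference among these 8 was called. Among the 4 other Plcb1 probe sets the correlation with 1435043_at over 15 arrays ran from −0.04 (1425782_at) to 0.59 (1425600_a_at). The second Prex2 probe set (1432047_at) gave 0.15, the second Hkdc1 probe set (1459421_at) −0.04, and the Ildr2 probe sets 1436221_at and 1436894_at 0.09 and 0.40. These are descriptions of dim values. Above background, Prex2, Plcb1, Ildr2 and Hkdc1 therefore each rest on 1 of their several probe sets, and the remaining 6 genes have 1 only. The x in the name of the Ildr2 probe set marks probes that can also match other transcripts.

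**Figure D4:**
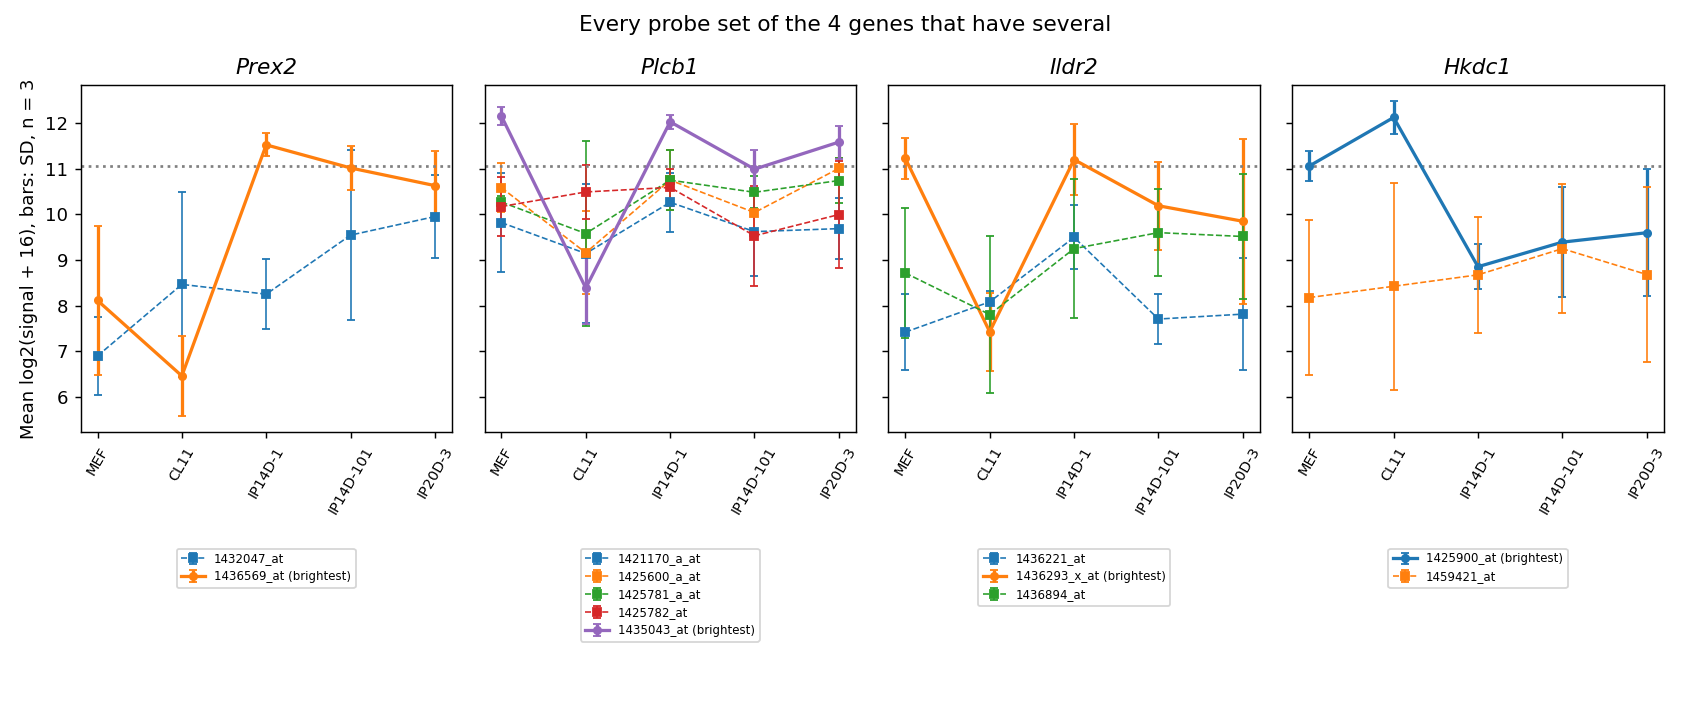
Mean log2(signal + 16) by group, with SD (n = 3), for every probe set of Prex2, Plcb1, Ildr2 and Hkdc1, the genes that have several. The dotted line is background at 11.06. Solid lines are the brightest probe sets, and all dashed ones stay below background in every group.

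The 10 genes did not share one profile. Over 15 arrays, which share the group structure, Irs1 and Plcb1 correlated at 0.92, Tafa1 and Hkdc1 at 0.83, and Bnipl and Vax2 at −0.86, while Irs1 and Bnipl gave −0.19. Over all genes above background, the closest profile to Irs1 was Hoxb2 (Pearson r = 0.958 over 15 arrays) and then Plagl1 (0.944), and Plagl1 (0.944) and Fgf13 (0.935) were closest to Plcb1. Thbd was closest to Chodl (0.948) and Fam91a1 (0.94), Vax2 to Ifitm3 (0.958) and Abhd4 (0.944), and Bnipl to Ttc32 (0.966) and Faf1 (0.964). Bmp4 stood first for Tafa1 (0.899) and second for Hkdc1 (0.855), with Arf5 (0.86) and Rab7 (0.883) as the other neighbours. Prex2 was closest to St6gal1 (0.914) and Fign (0.879), Ildr2 to Btbd1 (0.925) and Tmem47 (0.861), and Vwa3b to 1110059E24Rik (0.871) and Slc39a14 (0.846).

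The genes are scattered over the genome: in RefSeq on GRCm38.p6, Irs1, Prex2, Ildr2 and Vwa3b lie on chromosome 1, Plcb1 and Thbd on chromosome 2, Tafa1 and Vax2 on chromosome 6, Bnipl on chromosome 3 and Hkdc1 on chromosome 10. To see whether the genes beside them moved too, the nearest measured gene on each side was read, 20 in all, a check added after the values were seen. None passed in the same direction in all 3 iPS lines against CL11, where 1.03% of all probe sets were higher and 0.93% lower. At these shares a count of none among 20 says little. A830018L16Rik, Cd207 and Atp6v1b1 had all group means below background, and Dock10 lay 1474339 bases from Irs1. Of the 20, 3 were higher and 3 lower in IP14D-1, and IP14D-101 and IP20D-3 had 1 higher each. On 1 probe set per gene, 4412 (IP14D-1), 2092 (IP14D-101) and 3984 (IP20D-3) of 18193 were called in either direction. Over all probe sets, 9.42% were higher and 7.78% lower in IP14D-1. The shares were 3.31% and 3.86% in IP14D-101, and 7.61% and 6.87% in IP20D-3. Rhbdd1, beside Irs1, was higher in IP14D-1 (0.73 ± 0.17 log2, limma adjusted p = 0.00452; not under median scaling, 0.0521) and IP20D-3 (0.97, 0.000434) but gave −0.05 in IP14D-101 (0.925). Hk1, the hexokinase gene beside Hkdc1, was lower in IP14D-1 (−0.73 ± 0.12, adjusted p = 0.000212) and gave 0.07 and 0.08 in IP14D-101 and IP20D-3; with unscaled signals the call was lost (0.0714). Tafa4, beside Tafa1 and of the same family, was lower in IP14D-1 (−2.15 ± 0.68, adjusted p = 0.0349, both means below background), and Suclg2 on its other side was higher in IP14D-101 (0.39 ± 0.07, 0.00128). Both calls were lost with unscaled signals (0.0685 and 0.251).

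Around Irs1 and Prex2, 32 of 34 listed genes of insulin, IGF and PI3K signalling were analysed here, and they moved both ways. Against CL11, IP14D-1 had 6 higher and 9 lower, IP14D-101 1 and 4, and IP20D-3 4 and 7, with medians of −0.03, 0.05 and 0.00 log2 beside 0.12, −0.04 and 0.07 over all probe sets. Inpp5d, a phosphatase that degrades the PI3K lipid, fell in each (by 1.30 ± 0.18, 0.78 and 1.35; limma adjusted p = 5.29e-05, 0.0109 and 3.57e-05), the IP14D-101 call being lost under median scaling (0.0674). Igf1, a ligand of the pathway, fell in IP14D-1 (−2.63 ± 0.60, adjusted p = 0.00448) and in IP20D-3 (−2.12, 0.0218). Irs2, the closest relative of Irs1, rose in IP14D-1 (1.65 ± 0.38, limma adjusted p = 0.00535) and gave 0.55 and 0.99 in IP14D-101 and IP20D-3, short of the threshold. The CL11 mean of Irs2 was below background. Grb10, which binds and restrains the insulin receptor, fell in IP14D-101 (−1.76 ± 0.08, 3.29e-10) and rose in IP20D-3 (0.63, 2.6e-05) and IP14D-1 (0.57, 7.92e-05), the last not under median scaling (0.0693). With unscaled signals the IP14D-1 counts turned to 10 higher and 5 lower, and under median scaling they were 2 and 15. As reported, 9.42% of all probe sets were higher and 7.78% lower than CL11 in IP14D-1. The shares were 3.31% and 3.86% in IP14D-101, and 7.61% and 6.87% in IP20D-3. These shares, and the medians over all probe sets above, also stand beside the lists that follow. List genes are read on their brightest probe set. On 1 probe set per gene, 4412 (IP14D-1), 2092 (IP14D-101) and 3984 (IP20D-3) of 18193 were called against CL11, in either direction.

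Around Plcb1, 27 of 28 genes of Gq, phospholipase C and protein kinase C signalling were measured, of which 3 rose and 8 fell in IP14D-1, 3 and 2 in IP14D-101, and 5 and 5 in IP20D-3 (medians −0.35, 0.17 and −0.17 log2). Cds2, an enzyme that rebuilds phosphoinositides, rose in each line (0.92 ± 0.09, 0.43 and 1.66 in the order IP14D-1, IP14D-101, IP20D-3; limma adjusted p = 6.72e-07, 0.00401 and 4.62e-10), though not in IP14D-101 with unscaled signals (0.285), and its relative Cds1 rose in IP20D-3 (1.67 ± 0.34, 0.00193). Dgkz, a diacylglycerol kinase, fell in IP14D-1 and IP20D-3 (−1.01 ± 0.11 and −1.02). Plcd3, a phospholipase C of the delta class, fell in IP14D-1 (−0.67 ± 0.17, 0.00996, not with unscaled signals, 0.268) and IP20D-3 (−1.10, 0.000194). Plcg2, of the gamma class and singled out after its values were seen, rose in IP14D-1, IP14D-101 and IP20D-3 by 0.40 ± 0.13, 0.67 and 1.01 (limma adjusted p = 0.0467, 0.00357 and 3.07e-05). The IP14D-1 call was lost under median scaling (0.527) and the IP14D-101 call with unscaled signals (0.0898). With unscaled signals the IP14D-1 counts became 6 higher and 2 lower, and under median scaling IP20D-3 had 3 and 7.

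Of the hexokinase and glucose entry genes around Hkdc1, 11 of 14 were measured, and none rose and 8 fell in IP14D-1, none rose and 1 fell in IP14D-101, and 1 rose and 6 fell in IP20D-3 (medians −0.46, −0.02 and −0.35 log2). Pfkp, a phosphofructokinase of glycolysis, fell in each (by 1.20 ± 0.08, 1.43 and 1.00; limma adjusted p = 2.1e-08, 5.06e-09 and 1.81e-07). Hk2 fell in IP14D-1 (−1.26 ± 0.10, 9.77e-08) and IP20D-3 (−0.93, 3.02e-06) and gave −0.16 in IP14D-101 (0.416). Slc2a1, a glucose transporter, fell in IP20D-3 (−1.05 ± 0.13, 1.35e-05) and in IP14D-1 (−0.40, 0.0367), the latter not with unscaled signals (0.782). The gene that rose was Slc2a4, the insulin-responsive glucose transporter, in IP20D-3 (1.52 ± 0.49, 0.0439), a call lost with unscaled signals (0.0948), median scaling (0.0519) and quantile normalization (0.0548). With unscaled signals the IP14D-1 counts were 1 higher and 3 lower, and the median of IP14D-101 was 0.10 under median scaling.

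Of 16 thrombomodulin, protein C and clotting genes, 14 were measured, with 2 higher and 3 lower in IP14D-1, 0 and 3 in IP14D-101, and 0 and 5 in IP20D-3 (medians −0.27, −0.31 and −0.42 log2). Tfpi, an inhibitor of the start of clotting, fell in each line (by 1.16 ± 0.08, 1.57 and 1.52; limma adjusted p = 4.06e-08, 2.19e-09 and 1.19e-09), as did Plaur, the urokinase receptor (by 0.90 ± 0.16, 1.34 and 1.26). F3, tissue factor, rose in IP14D-1 (1.66 ± 0.16, 1.22e-06). F5, coagulation factor V, also rose there (1.75 ± 0.58, 0.0473; at least 1.41-fold, with CL11 below background), but not under median scaling (0.0746) or quantile normalization (0.0707). With unscaled signals the IP14D-1 counts were 3 higher and 2 lower, with a median of 0.06.

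Of 17 eye field and ventral forebrain factors, 13 were measured; 2 rose in IP14D-1, none passed in IP14D-101, and 3 rose and 1 fell in IP20D-3 (medians 0.11, 0.16 and 0.63 log2). Those higher in both IP14D-1 and IP20D-3 were Efnb2, an ephrin (2.27 ± 0.24 and 1.39, limma adjusted p = 2.59e-06 and 0.000441), and the homeobox gene Otx2 (1.40 ± 0.20 and 1.11, 7.9e-05 and 0.000763). Hesx1, another homeobox gene, rose in IP20D-3 (0.84 ± 0.22, 0.0142), but not with unscaled signals (0.136) or median scaling (0.0529). The IP14D-1 median was −0.12 under median scaling and −0.24 under quantile normalization. Of 23 close relatives of the 10 genes, 22 were measured, with 2 higher and 4 lower in IP14D-1, none called in IP14D-101, and 1 higher and 2 lower in IP20D-3 (medians 0.30, 0.18 and 0.21 log2). Prune2 rose in IP14D-1 and IP20D-3 (1.05 ± 0.13 and 1.19). Prex1, the relative of Prex2, fell in IP14D-1 (−0.99 ± 0.31, limma adjusted p = 0.0331), but not with unscaled signals (0.169). With unscaled signals the IP14D-1 counts were 5 higher and 1 lower and the IP20D-3 median −0.01.

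Markers of other cell types were read as well, and those of primitive and parietal endoderm differed between the lines. The 13 primitive and parietal endoderm markers, Gata6, Gata4 and Sox17 among them, summed to 566319 to 591108 in CL11 and 372236 to 420328 in IP14D-101, with all 13 above background. The sums were 65343 to 71531 in IP14D-1 (7 above background) and 51796 to 55145 in IP20D-3 (6 above), and 754152 to 812413 in MEF (6 above). A sum follows its brightest genes. By gene, 10 of the 13 were higher and 1 lower in CL11 than in MEF (median 3.16 log2). The counts were 8 and 2 in IP14D-101, 5 and 5 in IP14D-1, and 3 and 5 in IP20D-3. Of all probe sets, 22.1% were higher and 21.3% lower than MEF in CL11. The shares were 21.8% and 23.9% in IP14D-101, 23.3% and 18.7% in IP14D-1, and 23.5% and 20.3% in IP20D-3. Against CL11, all 13 markers were lower in IP14D-1 and in IP20D-3, and 1 was lower in IP14D-101. Of all probe sets, 7.78%, 6.87% and 3.86% were lower in these lines. Tafa1, Hkdc1, Vwa3b and Vax2 were below background in IP14D-101, where the endoderm sum was closest to that of CL11, as in the lines where it was low; the part of these cells in the results was not tested. The 8 endothelial markers, set beside Thbd, summed to 25247 to 31129 in CL11, 25219 to 35970.2 in IP14D-1, 17628 to 21066 in IP14D-101, 31418 to 51536 in IP20D-3 and 22959 to 24663 in MEF, with 2 or 3 above background in each group. The 6 neural progenitor markers summed to 29247 to 32741 in CL11, 39572 to 44900.1 in IP14D-1, 41252 to 43395 in IP14D-101, 40912 to 45873 in IP20D-3 and 90293 to 100777 in MEF. By gene, 2 of these 6 were higher and 3 lower in CL11 than in MEF. The 9 trophoblast markers summed to 66584 to 83896 in CL11, 66187 to 72157 in IP14D-1, 63996 to 76073 in IP14D-101, 80817 to 85592 in IP20D-3 and 6997 to 10656 in MEF. Against CL11, none of the 8 endothelial markers was called in any iPS line. Of the 9 trophoblast markers, none was called in IP14D-1 and 1 was lower in each of IP14D-101 and IP20D-3. Actin signal at the 3′ end over that at the 5′ end, a sign of RNA quality, was 1.19 to 1.22 in CL11, 1.14 to 1.17 in MEF, 1.32 to 1.39 in IP14D-1, 1.16 to 1.29 in IP14D-101 and 1.25 to 1.30 in IP20D-3. It was higher in IP14D-1 and IP20D-3 than in CL11 on every array and overlapped with CL11 in IP14D-101; its part in the results was not tested.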

How the data were processed

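Expression in 5 groups of 3 mouse samples was read from the deposited table of intensity values, MAS5 signals which the submitters' processing notes credit to Affymetrix Expression Console with no version. Raw scans were not used here. Each array (2% trimmed means 11142 to 20356, ratio 1.83) was scaled to their mean, 16 was added and log2 taken. Controls (64 of 45101 probe sets) were left out. limma 3.58.1 in R 4.3.3 fitted 1 mean per group over 45037 probe sets (eBayes with trend, 10 residual and a median of 7.82 prior degrees of freedom). Benjamini-Hochberg adjustment ran over all probe sets of a comparison; a call means an adjusted p under 0.05. Precision is limited by 3 arrays a group. The fit was checked on simulated data.

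The 10 genes and the lists (insulin, IGF and PI3K signalling; Gq, phospholipase C and protein kinase C signalling; hexokinases and glucose entry; thrombomodulin, protein C and clotting; eye field and ventral forebrain factors; close relatives; and marker lists) were chosen with earlier results of these data known. Of the probe sets, 34945 named 1 gene, 932 several and 9160 none, and each gene is represented by its brightest single-gene probe set over all arrays. All 10 genes are named; from each list up to 4 called genes with the largest differences, and the 2 most correlated genes per member. Where the dimmer group lay below background, its arrays below it were raised to background for an "at least" fold. Alternatives were other scalings, pseudocounts of 1, 64 and 1000, a filter on dim probe sets, 1 probe set per gene, fits on 2 groups, without a trend or with a replicate block, leaving out each array, and the 90th percentile as background. Same-numbered replicates did not deviate together (0 of 30 pairs correlated over 0.1).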

Additional observations from a re-analysis of the deposited data

Results flagged for a closer look

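Irs1 was the only gene of the 10 to differ between iPS lines by a test of the difference itself. IP14D-101 lay below IP14D-1 by −1.54 log2 (limma adjusted p = 0.0245), with signals of 2579 to 3544 against 8947 to 9712, all above background. The lines also differ in genetic background, C57x129S2 against B6D2F1, which cannot be told apart from the line. The call held under 8 of 11 other settings. It was lost when any 1 of 4 of the 6 arrays was left out (limma adjusted p up to 0.077).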

How the results depend on the processing

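No call on any of the 10 genes changed its direction under any alternative. Irs1, Thbd, Plcb1, Ildr2 and Vwa3b in CL11 minus MEF, and Irs1, Thbd, Bnipl and Vax2 in each iPS line minus MEF, kept their calls under all 11 alternatives and with each array left out. The number of the 10 genes called in IP14D-101 minus IP14D-1, 1 as reported, was 2 with unscaled signals and with a pseudocount of 1000 (Plcb1 added) and 0 under median scaling, quantile normalization and no trend; leaving out 1 array gave 0 to 1. For IP20D-3 minus IP14D-1 it was 1, Irs1, in place of 0 with unscaled signals, a pseudocount of 1000 and the fit on 2 groups. Unscaled signals also added Tafa1 and Hkdc1 in IP14D-101 minus MEF (adjusted p = 0.0381 and 0.0143) and Plcb1 and Hkdc1 in IP20D-3 minus MEF (0.0375 and 0.0225).

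Over all probe sets, 1 probe set per gene reduced the number tested and gave 9837 calls in CL11 minus MEF in place of 19552. The other lines minus MEF had 9600 (18914, IP14D-1), 10017 (20578, IP14D-101) and 9842 (19746, IP20D-3). Against CL11 it gave 4412, 2092 and 3984 in place of 7747, 3232 and 6520, for IP14D-101 minus IP14D-1 5085 (10556) and for IP20D-3 minus IP14D-101 4274 (8188). IP14D-101 minus CL11 fell to 1947 in the fit on 2 groups and 1704 without a trend, and to 2016 to 3499 with 1 array left out, the lowest without CL11 replicate 2. IP20D-3 minus IP14D-1, 2466 as reported, was 12855 unscaled, 1038 without a trend and 1386 to 1931 with 1 array left out. The cause was not tested.

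The share of calls that were higher moved with scaling. As reported, unscaled and under median scaling it was 51.0%, 33.0% and 60.2% for CL11 minus MEF, 47.8%, 25.8% and 61.3% for IP14D-101 minus MEF, and 54.8%, 91.0% and 26.4% for IP14D-1 minus CL11. It was 46.2%, 16.3% and 63.8% for IP14D-101 minus CL11, 52.6%, 21.3% and 34.9% for IP20D-3 minus CL11, 40.6%, 4.2% and 74.0% for IP14D-101 minus IP14D-1, and 50.0%, 0.863% and 67.9% for IP20D-3 minus IP14D-1. For IP20D-3 minus IP14D-101 it was 57.8% and 29.2% under median scaling, and for IP20D-3 minus MEF 53.7% and 27.7% unscaled. Quantile normalization moved IP14D-101 minus IP14D-1 to 50.7%. The median of all probe sets moved from −0.17 to −0.64 unscaled and 0.18 under median scaling in that comparison.

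A replicate block, which the pairing check did not call for, changed the calls against MEF from 19552 to 19426 in CL11 and added Hkdc1 in IP14D-101 minus MEF (7 of the 10 genes in place of 6, adjusted p = 0.0426). Most signals of the 10 genes in their dim groups lay below background, which limits every such fold to a lower bound.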
